A study of Homo sapiens with 12 samples.

Results

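The core genes of transforming growth factor beta (TGF-β) signaling were followed in HK-2 cells, an established human proximal tubule line immortalized with viral oncogenes. The 9 genes were chosen by name and comprised 3 ligands (TGFB1, TGFB2 and TGFB3), 2 receptors (TGFBR1 and TGFBR2) and 4 SMADs (SMAD2, SMAD3, SMAD4 and SMAD7). All 9 were found among the 35238 genes of the expression table. The cells were transfected with 10 nM of a short interfering RNA, either scrambled (SCR) or directed against POLR2A (siB), whose product RPB1 is the largest subunit of RNA polymerase II. Aristolochic acid I (AAI, 25 µM), a plant nephrotoxin that damages DNA, or its vehicle DMSO was given at the time of transfection for 24 hours. This gave 4 groups of 3 libraries, SCR DMSO, SCR AAI, siB DMSO and siB AAI. All of them came from 1 cell line, and the labels did not say whether replicates were separate cultures, so the p-values below measure only the spread between these libraries. In bulk RNA, fewer cells expressing a gene and less RNA per cell cannot be told apart.

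TGF-β ligands are secreted in a latent form and, once freed, bring together the receptors TGFBR2 and TGFBR1, which are serine/threonine kinases. TGFBR1 then phosphorylates SMAD2 and SMAD3, which join SMAD4 and enter the nucleus to regulate genes, while SMAD7 is induced by the pathway and inhibits its receptors. In the injured kidney the pathway is best known for its part in fibrosis and in the loss of epithelial traits of the tubule.

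The ligand genes differ in the DNA just upstream of their start sites, shown here because the level of each ligand is followed below. The 250 bases before the RefSeq start (GRCh38.p14, gene strand, 5′ to 3′) are printed in lower case, with the letters of 2 promoter elements and a SMAD element in capitals. The TGFB1 window was chr19:41353923-41354172 (minus strand), the TGFB2 window chr1:218345086-218345335 (plus strand) and the TGFB3 window chr14:75981996-75982245 (minus strand). None of the 3 windows overlapped an annotated exon, and that of TGFB3 lay inside the annotated gene span, downstream of the start of a longer transcript.
TGFB1: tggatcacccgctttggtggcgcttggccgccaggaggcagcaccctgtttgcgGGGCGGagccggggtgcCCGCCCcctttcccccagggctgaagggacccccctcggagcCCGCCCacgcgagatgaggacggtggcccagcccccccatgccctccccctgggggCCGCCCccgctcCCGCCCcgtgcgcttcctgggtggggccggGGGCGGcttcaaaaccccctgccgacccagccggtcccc
TGFB2: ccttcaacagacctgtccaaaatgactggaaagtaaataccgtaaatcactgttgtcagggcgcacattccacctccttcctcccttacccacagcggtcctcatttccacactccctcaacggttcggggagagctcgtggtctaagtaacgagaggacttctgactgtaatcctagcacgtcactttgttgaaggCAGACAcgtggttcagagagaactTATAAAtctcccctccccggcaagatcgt
TGFB3: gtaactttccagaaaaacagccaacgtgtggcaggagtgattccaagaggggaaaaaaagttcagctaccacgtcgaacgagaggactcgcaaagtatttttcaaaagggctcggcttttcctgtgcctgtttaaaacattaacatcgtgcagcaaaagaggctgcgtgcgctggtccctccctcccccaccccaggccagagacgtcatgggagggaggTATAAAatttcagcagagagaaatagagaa

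Each motif was searched on both strands. The letters taken for the box bound by the TATA-binding protein were TATAAA. For the box bound by SP1 and its relatives they were GGGCGG. For the SMAD element, which SMAD3 and SMAD4 are known to bind, they were CAGACA. For the site of the AP-1 factors they were TGACTCA. The TGFB1 window was 76.8% G or C and held the letters of the SP1 box (GC box) 6 times and no TATA box. The TGFB2 window, 50.4% G or C, held a TATA box whose first base lay at position -29 from the start and a SMAD element at -53. The TGFB3 window, 49.2% G or C, held a TATA box at -30 and no other match. Of 35116 RefSeq promoter windows of this length, 10.7% held a TATA box, 42.6% a GC box, 13.6% a SMAD element and 4.2% an AP-1 site. Among the windows of the other 6 genes, GC boxes were found for TGFBR2 (2), SMAD2 (3), SMAD3 (4) and SMAD4 (2), and none of the 4 motifs for TGFBR1 or SMAD7. The AP-1 letters were in 0 of the 9 windows. These matches describe letters and do not show that a factor binds there.

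Depth ran from 15844015 to 42805294 reads per library. POLR2A, the target of the knockdown, stood at 258 to 306 CPM (counts scaled to a common total per library) in SCR DMSO and 138 to 143 CPM in siB DMSO. Under AAI it stood at 673 to 729 CPM in SCR and 210.3 to 266 CPM in siB cells, so the groups followed their labels. SCR DMSO replicate 2, the deepest library, stood apart from its group. It had the lowest TGFB2, TGFB3, TGFBR1, TGFBR2, SMAD2, SMAD3 and SMAD4 and the highest TGFB1 and SMAD7 of the 3 SCR DMSO libraries. The median SD of the 9 genes between replicates (log2 scale) was 0.53 in SCR DMSO, 0.38 in SCR AAI, 0.12 in siB DMSO and 0.22 in siB AAI, against 0.38, 0.25, 0.15 and 0.18 for all genes.

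Of 10 proximal tubule markers, most were low, with highest levels of 1.20 (LRP2), 2.26 (CUBN), 2.04 (SLC34A1), 0.0631 (SLC22A6), 0.554 (AQP1), 1.77 (HNF4A) and 4.17 CPM (ANPEP). GGT1 stood at 96.0 to 184, MIOX at 11.8 to 33.2 and SLC5A2 at 3.13 to 20.1 CPM. Summed, the 10 ran from 125 to 171 CPM in SCR cells, from 200.4 to 225 in siB DMSO and from 156 to 165 in siB AAI. With AAI, 1 of 4 tested rose in SCR cells, SLC5A2 (1.75, log2 scale of CPM plus 1, adjusted p 0.00443). In siB cells 2 of 5 rose, ANPEP (1.85, adjusted p 8.0e-05) and SLC5A2 (1.55, adjusted p 7.0e-04). The 2 that fell were MIOX (-1.01, adjusted p 8.9e-04) and GGT1 (-0.53, adjusted p 0.00182). With the knockdown under AAI, ANPEP was higher (1.49, adjusted p 0.00375) and SLC34A1 lower (-0.77, adjusted p 0.0388). ANPEP passed the filter only through siB AAI, with at most 0.128 CPM in siB DMSO and 0.607 in SCR AAI. For the knockdown under AAI, SLC34A1 passed the filter only through SCR AAI, with at most 0.911 CPM in siB AAI. Of 5 general epithelial markers, all at 2.76 CPM or more (KRT8 526 to 809 CPM), 0 passed with AAI in SCR cells and 4 fell in siB cells, KRT19 (-1.66, adjusted p 6.9e-05), CDH1 (-0.82, adjusted p 0.0417), KRT18 (-0.36, adjusted p 0.0133) and KRT8 (-0.34, adjusted p 0.0189). Their sum was 1107 to 1150.4 CPM in siB AAI and 1468 to 1637 in siB DMSO, with no overlap, and 1171 to 1906.5 in SCR cells. KRT19 was also lower with the knockdown under AAI (-0.91, adjusted p 0.0182). Of 5 endothelial markers only PECAM1 passed the filter on low values, at 3.38 to 5.55 CPM in siB AAI and 0.864 to 1.62 in the other groups, and it rose with AAI in siB cells (1.39, adjusted p 3.6e-04) and with the knockdown under AAI (1.23, adjusted p 0.00661). Summed, the 5 stood at 4.34 to 6.06 CPM in siB AAI and 1.21 to 2.59 in the other groups, with VWF at most 0.832, TEK 0.590, CDH5 0.369 and KDR 0.0467 CPM. Of 6 leukocyte markers 2 of 3 tested rose in both these comparisons, ITGAM (1.77, adjusted p 1.0e-04, and 1.35, adjusted p 0.00512) and PTPRC (1.33, adjusted p 3.0e-04, and 0.82, adjusted p 0.0291). ITGAM averaged 0.223 CPM in siB DMSO and 3.21 in siB AAI, PTPRC reached 2.91 and LYZ 0.947 CPM, and CD3E was at 0 in every library. In siB cells ITGAM and PTPRC passed the filter only through siB AAI, with at most 0.299 and 0.676 CPM in siB DMSO. For the knockdown under AAI, ITGAM also passed only through siB AAI, with at most 0.770 CPM in SCR AAI. The filter thus favored its higher value. The sum, mostly CD68, ran from 60.6 to 98.4 CPM and overlapped between all groups. Of 6 fibroblast markers, 0 of 3 tested passed with AAI in SCR or in siB cells. The sum of the 6 ran from 15.9 to 46.7 CPM, mostly LUM, with COL3A1 at most 0.257 CPM. The part of these markers in the results below was not tested.

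**Figure D1:**
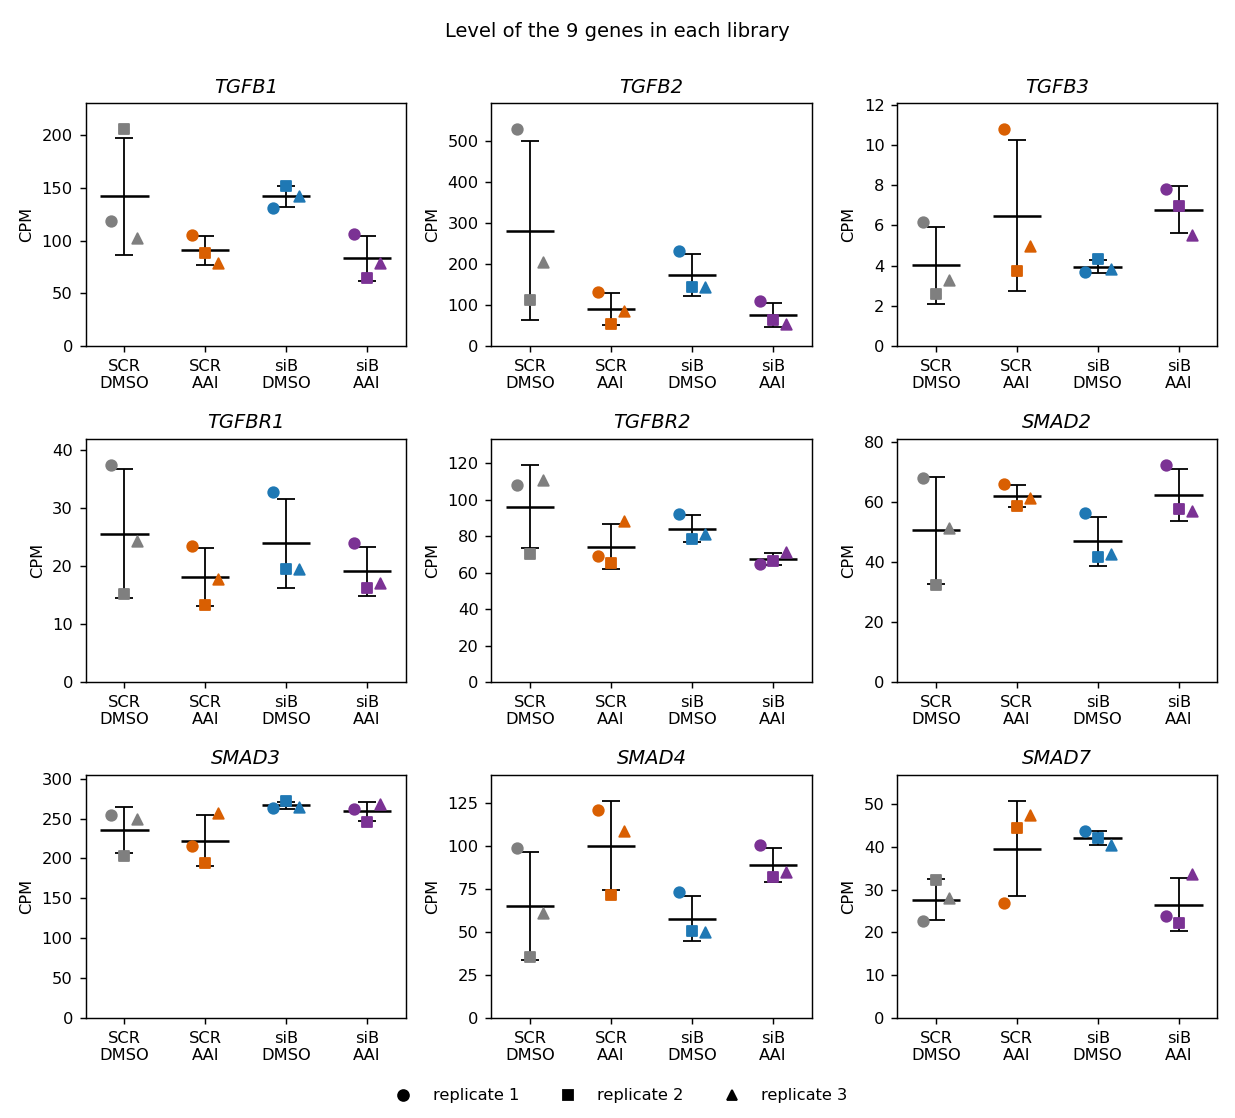
Level of each of the 9 genes in every library, in CPM on a linear axis from 0 (a separate scale for each gene). Symbols mark replicates, the bar is the group mean and the whiskers are 1 SD (n = 3). TGFB1 and TGFB2 sit lower in siB AAI than in siB DMSO with no overlap, SMAD4 sits higher, and the SMAD7 means are highest in siB DMSO and SCR AAI.

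Levels were compared between genes per kilobase of the main transcript. In SCR DMSO the order was TGFB1 (51.0 ± 19.9 CPM per kb, SD, n = 3), TGFB2 (48.1 ± 37.3), SMAD3 (36.5 ± 4.42), TGFBR2 (21.2 ± 5.01), SMAD7 (8.27 ± 1.42), SMAD4 (7.41 ± 3.61), TGFBR1 (3.94 ± 1.72), SMAD2 (1.46 ± 0.514) and TGFB3 (1.17 ± 0.557). The libraries of neighbors in this order overlapped, with 3 exceptions, SMAD3 (31.4 to 39.3 CPM per kb) with TGFBR2 (15.5 to 24.4), TGFBR2 with SMAD7 (6.79 to 9.63) and TGFBR1 (2.33 to 5.75) with SMAD2 (0.937 to 1.96). SMAD3 led in both AAI groups, at 34.4 CPM per kb in SCR (30.02 to 39.9) and 40.1 in siB cells (38.1 to 41.5), followed by TGFB1 at 32.6 (28.2 to 38.01) and 29.9 (23.3 to 38.3), and the 2 genes overlapped in both. The main transcript of SMAD2 is annotated at 34.6 kb, the longest of the 9, which lowers its value per kilobase and makes its place in this order uncertain.

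TGFB1 encodes the most studied ligand of the family. Its level was 119, 205 and 102 CPM in SCR DMSO replicates 1, 2 and 3 and 106, 88.1 and 78.4 CPM in SCR AAI. The siB libraries gave 131, 152 and 142 CPM with DMSO and 106, 64.7 and 78.7 CPM with AAI. The 3 siB AAI libraries all lay below the 3 siB DMSO libraries, whereas SCR AAI replicate 1 lay above SCR DMSO replicate 3. TGFB1 fell with AAI in siB cells, by 0.79 on the log2 scale of CPM plus 1 (SE 0.17, adjusted p 0.00353), and kept this call in all 15 alternative fits. In SCR cells the change was -0.58 (SE 0.29, adjusted p 0.251), and -0.29 without SCR DMSO replicate 2. The knockdown gave 0.06 with DMSO (95% interval -0.58 to 0.71) and -0.14 with AAI (-0.57 to 0.29).

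TGFB2, the ligand that needs the coreceptor TGFBR3 to bind well, had the largest change with AAI of the 9 genes in both SCR and siB cells. It stood at 529, 113 and 205 CPM in SCR DMSO and at 132, 54.6 and 86.8 CPM in SCR AAI. The siB libraries held 233, 145 and 143 CPM with DMSO and 109.7, 62.9 and 54.6 CPM with AAI. Within SCR DMSO the highest library was several times the lowest, and only SCR DMSO replicate 2 lay within the range of SCR AAI. TGFB2 fell by 1.22 with AAI in siB cells (SE 0.26, adjusted p 0.00391) and was the only one of the 9 genes past the 2-fold limit there. Without siB DMSO replicate 1 the fall was 0.99, under that limit, and in the fit over all 4 groups the adjusted p was 0.0776 (range over 15 alternatives 1.5e-05 to 0.0776). In SCR cells the change was -1.42 (SE 0.55, adjusted p 0.146), and -0.82 without SCR DMSO replicate 1 (adjusted p 0.205). Same-numbered SCR libraries deviated together, though the labels state no pairing. With the replicate number as a block, which assumes a pairing, the same change had an adjusted p of 0.00543, with same-number differences of -1.99, -1.04 and -1.23. TGFB2 also passed in SCR cells without SCR DMSO replicate 2 (-1.93, adjusted p 0.00566) and under median-ratio scaling (-1.62, adjusted p 0.0445), and did not in the other 12 alternatives. With the knockdown TGFB2 differed by -0.44 with DMSO (95% interval -1.74 to 0.85) and by -0.24 with AAI (-0.90 to 0.42).

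TGFB3 was the scarcest ligand. Its level was 6.19, 2.59 and 3.27 CPM in SCR DMSO and 10.8, 3.72 and 4.97 CPM in SCR AAI. With the knockdown it was 3.68, 4.33 and 3.85 CPM with DMSO and 7.83, 6.97 and 5.52 CPM with AAI. SCR groups overlapped and siB groups did not. TGFB3 rose by 0.64 with AAI in siB cells (SE 0.18, adjusted p 0.0131), and in the fit over all 4 groups the adjusted p was 0.162. In SCR cells the change was 0.53 (SE 0.41, adjusted p 0.450), and the knockdown gave 0.04 with DMSO (95% interval -0.65 to 0.74) and 0.16 with AAI (-0.50 to 0.81). TGFB3 lies across IFT43 and TGFB3-AS1 on the other strand, TGFB2 overlaps TGFB2-AS1 and TGFB2-OT1, and TGFB1 overlaps 4 protein-coding genes. Whether the counting used strand was not stated, so reads in these overlaps are of uncertain origin.

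The make-up of the ligand pool was read as each ligand's share of the summed CPM per kilobase. TGFB1 held 53.6 ± 23.6% (SD, n = 3) in SCR DMSO, 66.2 ± 8.15% in SCR AAI, 62.7 ± 7.86% in siB DMSO and 67.1 ± 4.37% in siB AAI. TGFB2 held 45.2 ± 23.3%, 30.3 ± 7.13%, 35.9 ± 8.03% and 28.3 ± 4.10% in the same order. These shares overlapped between groups, and in SCR DMSO that of TGFB2 ran from 20.6% in replicate 2 to 67.0% in replicate 1. TGFB3 held 1.15 ± 0.302% in SCR DMSO and 1.42 ± 0.178% in siB DMSO, against 3.59 ± 1.21% in SCR AAI and 4.53 ± 0.966% in siB AAI. Its share was between 2.57% and 5.64% in the 6 AAI libraries and between 0.805% and 1.57% in the 6 DMSO libraries, with no overlap. These shares are given without a test.

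**Figure D2:**
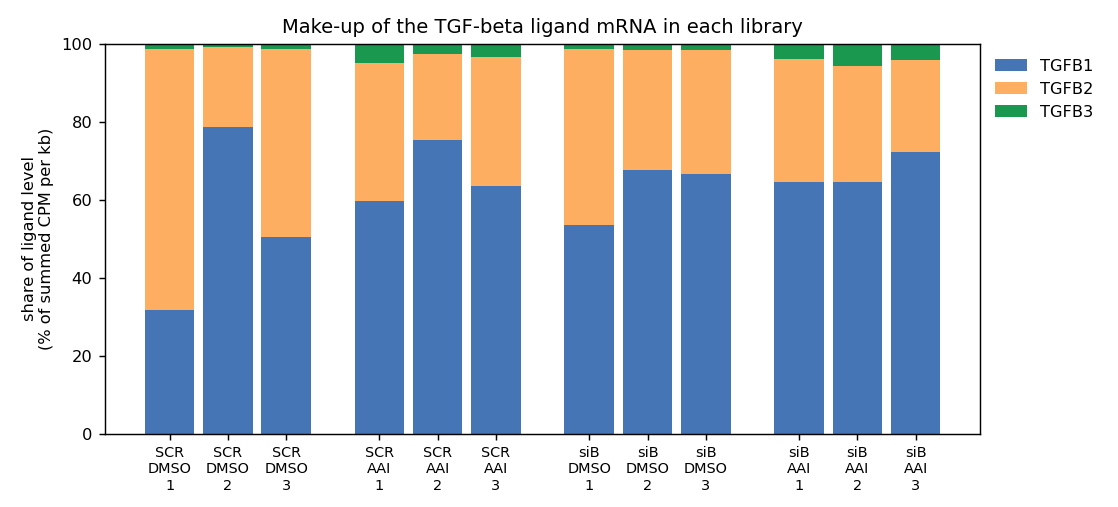
Share of the summed TGF-β ligand level (CPM per kb of main transcript, in percent) held by TGFB1, TGFB2 and TGFB3 in each of the 12 libraries, 1 stacked bar per library. The TGFB3 segment is at most 1.57% in DMSO libraries and at least 2.57% in AAI libraries, and the TGFB1 and TGFB2 segments differ most between the 3 SCR DMSO libraries.

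TGFBR1, the kinase that phosphorylates the SMADs, did not pass the test in any comparison. It stood at 37.3, 15.1 and 24.2 CPM in SCR DMSO and at 23.4, 13.3 and 17.7 CPM in SCR AAI. The siB libraries held 32.7, 19.5 and 19.5 CPM with DMSO and 23.9, 16.2 and 17.0 CPM with AAI. AAI and DMSO libraries overlapped in SCR and in siB cells. The change with AAI was -0.42 (SE 0.37, adjusted p 0.512) in SCR and -0.29 (SE 0.23, adjusted p 0.307) in siB cells. TGFBR2, the receptor that binds ligand first, stood at 108, 70.1 and 111 CPM in SCR DMSO and at 69.1, 65.2 and 88.4 CPM in SCR AAI. Among siB libraries these were 92.4, 78.7 and 81.4 CPM with DMSO and 64.8, 66.2 and 71.1 CPM with AAI. The siB groups did not overlap, and TGFBR2 fell there by 0.31 (SE 0.11, adjusted p 0.0370). This call was kept in 7 of 15 alternatives. It was lost when any 1 of the 6 siB libraries was left out (adjusted p 0.0568 to 0.0895), in the fit over all 4 groups (0.229) and without the trend (0.0645). In SCR cells the change was -0.35 (SE 0.25, adjusted p 0.417). With the knockdown TGFBR1 differed by -0.05 (95% interval -0.93 to 0.84) with DMSO and 0.08 (-0.42 to 0.58) with AAI, and TGFBR2 by -0.17 (-0.68 to 0.35) and -0.13 (-0.49 to 0.23).

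Of the receptor-activated SMADs, SMAD2 stood at 68.0, 32.4 and 51.2 CPM in SCR DMSO and at 65.9, 58.6 and 61.2 CPM in SCR AAI. In siB cells it stood at 56.3, 41.8 and 42.5 CPM with DMSO and at 72.3, 57.7 and 57.1 CPM with AAI. The 3 siB AAI libraries were above the 3 siB DMSO libraries, and SMAD2 rose there by 0.41 (SE 0.15, adjusted p 0.0471). The call stood at the edge of the threshold and was kept in 4 of 15 alternatives (adjusted p 0.00726 to 0.209). It was lost without siB DMSO replicate 2 (0.1604) or 3 (0.158), without siB AAI replicate 1 (0.129), 2 (0.0660) or 3 (0.0698), and in the fit over all 4 groups (0.209). Further fits that kept every library lost it as well. In SCR cells the change was 0.35 (SE 0.29, adjusted p 0.485). SMAD3, the partner that binds DNA directly, did not pass in any comparison, at 254, 203 and 249.97 CPM in SCR DMSO and 215.5, 194 and 258 CPM in SCR AAI. After knockdown its values were 264, 272 and 264 CPM with DMSO and 262, 246 and 269 CPM with AAI. Its change with AAI was -0.09 (95% interval -0.57 to 0.40) in SCR and -0.04 (-0.25 to 0.16) in siB cells. The siB DMSO libraries lay above the SCR DMSO libraries without overlap, by 0.18 (SE 0.14, unadjusted p 0.242), and 11.9% of the 13606 genes tested did not overlap there.

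SMAD4, the shared partner of the activated SMADs, stood at 98.5, 35.6 and 60.9 CPM in SCR DMSO and at 121, 71.2 and 108 CPM in SCR AAI. For siB cells the values were 73.0, 50.2 and 49.8 CPM with DMSO and 100.4, 81.9 and 84.6 CPM with AAI. Every siB AAI library lay above every siB DMSO library. SMAD4 rose with AAI in siB cells by 0.63 (SE 0.16, adjusted p 0.00926), and in the fit over all 4 groups the adjusted p was 0.152. In SCR cells, where the groups overlapped, the change was 0.70 (SE 0.38, adjusted p 0.291). With the replicate block, which assumes a pairing, it passed there at an adjusted p of 0.0495, with same-number differences of 0.29, 0.98 and 0.82. The knockdown gave -0.08 with DMSO (95% interval -0.97 to 0.82) and -0.14 with AAI (-0.57 to 0.29). SMAD4 overlaps a protein-coding readthrough gene.

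SMAD7, the inhibitor, was the one of the 9 genes whose changes with AAI had opposite signs in SCR and siB cells. It stood at 22.7, 32.2 and 28.0 CPM in SCR DMSO and at 26.9, 44.3 and 47.5 CPM in SCR AAI. In siB cells it stood at 43.7, 42.2 and 40.3 CPM with DMSO and at 23.7, 22.1 and 33.6 CPM with AAI. Every siB AAI library lay below every siB DMSO library, whereas the SCR groups overlapped and same-numbered SCR libraries differed by 0.24, 0.45 and 0.74 on the log2 scale. SMAD7 fell with AAI in siB cells, by 0.67 (SE 0.16, adjusted p 0.00722), in all 15 alternatives too. In SCR cells the change was 0.48 (SE 0.29, adjusted p 0.336). The difference between these responses, the interaction of siRNA and AAI, was -1.15 (SE 0.33, unadjusted p 0.00483) and missed the threshold over all genes (adjusted p 0.127). An unadjusted p under 0.05 was reached there by 13.3% of all genes. It passed without SCR DMSO replicate 2 (-1.26, adjusted p 0.0385) and without SCR AAI replicate 1 (-1.40, adjusted p 0.0389), with a range of 0.0385 to 0.284 over 20 alternatives. Without AAI, siB libraries stood above SCR libraries with no overlap, by 0.60 (SE 0.18, unadjusted p 0.0144), with an adjusted p of 0.9998. Under AAI, siB libraries differed from SCR libraries by -0.54 (SE 0.24, adjusted p 0.169). Same-numbered libraries of these AAI groups also deviated together, and with the block, which assumes a pairing, the adjusted p was 0.00350. Without SCR AAI replicate 1 the difference was -0.79 (adjusted p 0.0141). No other annotated gene overlaps SMAD7. Per kilobase, the level of SMAD7 was 0.232 ± 0.0685 of that of SMAD3 (SD, n = 3) in SCR DMSO, 0.347 ± 0.101 in SCR AAI, 0.305 ± 0.0133 in siB DMSO and 0.197 ± 0.0391 in siB AAI.

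Counted over the 9 genes, AAI in SCR cells moved 0 past an adjusted p of 0.05 in either direction, where 8.98% of the 14228 genes tested were higher and 3.36% lower, and 0 past the 2-fold limit, as against 10.5% of all genes. Of the 9, 1 gene, TGFB2, had an unadjusted p under 0.05, where 27% of all genes did. With the block 2 of 9 passed, where 21.1% of all genes did. In siB cells 3 of 9 were higher and 4 of 9 lower, where 30.4% and 21.8% of 14928 genes tested were, and 1 of 9 passed the 2-fold limit, where 19.7% of all genes did. These 7 genes were those whose siB groups did not overlap, as was the case for 60.8% of all genes tested. In the fit over all 4 groups 2 of 9, TGFB1 and SMAD7, passed, where 34.5% of all genes did. The median change of the 9 genes was -0.09 in SCR and -0.29 in siB cells, beside 0.18 and 0.10 for all genes tested. Scaling by median-ratio size factors moved the median of all genes to -0.01 in SCR and -0.02 in siB cells. With that scaling 1049 genes were higher and 806 lower in SCR cells (1277 and 478 as deposited), and 3915 higher and 4026 lower in siB cells (4535 and 3259). All 9 genes kept their direction with AAI under that scaling in SCR and in siB cells.

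With the knockdown under AAI, 0 of 9 genes passed in either direction, where 5.49% of 14946 genes tested were higher, 3.79% lower and 3.67% past the 2-fold limit, and only SMAD7 had an unadjusted p under 0.05, where 25.5% of all genes did. With the block 1 of 9 passed there, where 28.9% of all genes did. With DMSO it was 0 of 9, and of the 13606 genes tested 0% were higher, 0% lower and 0% past the 2-fold limit. POLR2A, the target itself, changed there by -1.01 (SE 0.13) without passing (adjusted p 0.505). A count of 0 in this comparison therefore does not show that the 9 genes were unchanged. SMAD7 was among the 644 genes (4.73%) whose p in that comparison was under 0.05 before adjustment. For the interaction 0 of 9 passed, where 1.46% of 15325 genes were higher and 0.157% lower. The comparisons of AAI with DMSO in SCR cells and of siB with SCR share control libraries, so their values are given side by side and were not set against each other.

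**Figure D3:**
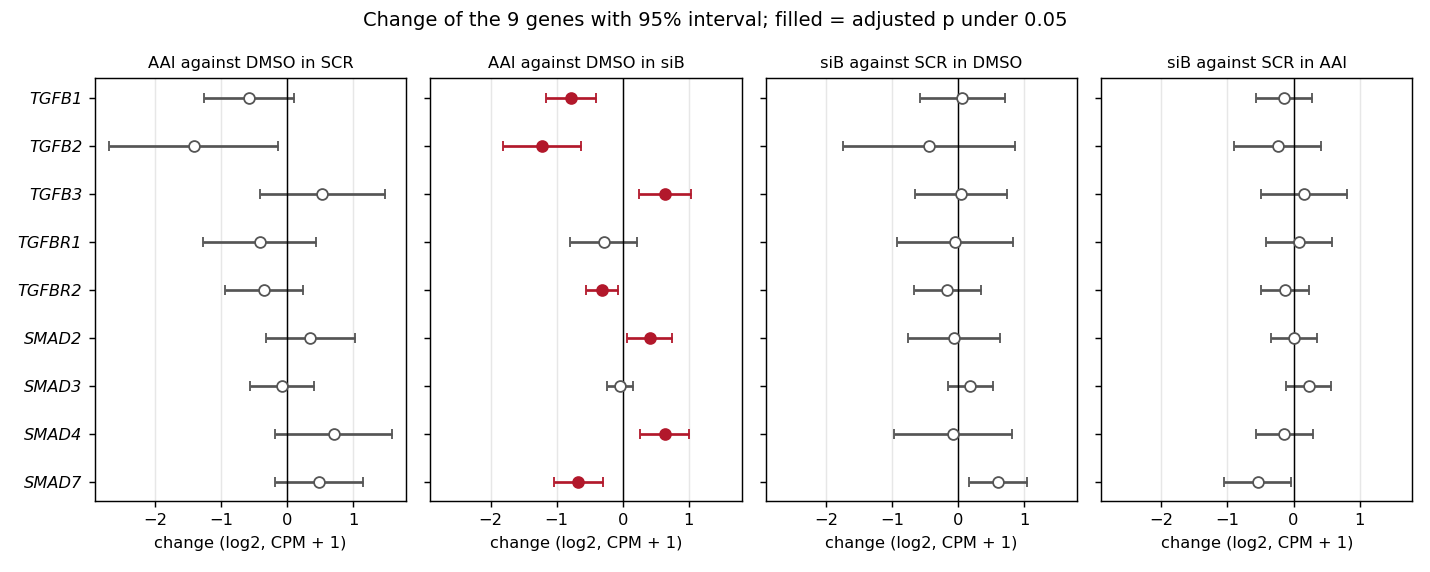
Change of each of the 9 genes (log2 scale of CPM plus 1, points) with its 95% interval (bars, limma) in the 4 pairwise comparisons. Filled points have an adjusted p under 0.05, and all 7 of them are in the comparison of AAI with DMSO in siB cells, where the intervals are narrower than in SCR cells.

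Around these genes stand those that release the ligands, the related receptors and ligands, the SMAD regulators and the genes TGF-β is known to regulate. The lists were chosen with earlier results of these data known, and their counts are read against the shares of all genes given above. Of the genes of latency and activation, 0 of 11 tested passed with AAI in SCR cells. In siB cells 1 of 12 rose, FURIN (0.53, adjusted p 0.00503), the protease that cleaves the ligand precursor. A further 5 of 12 fell, among them ITGB6 (-1.09, adjusted p 0.0263), a subunit of an integrin that activates latent ligand, and, picked after its value was seen, THBS1 (-0.47, adjusted p 0.00687), another activator. LRRC32, also among these 5 (-0.88, adjusted p 0.00805), passed the filter only through siB DMSO. It had at most 0.877 CPM in siB AAI, so the filter favored its fall. Of the other receptors 0 of 11 passed in SCR cells, and in siB cells 2 of 11 rose and 3 fell, with ENG, a coreceptor, at 0.76 (adjusted p 0.0136). The other SMADs gave 0 of 4 in SCR cells. In siB cells SMAD6, the inhibitory SMAD of the BMP branch, fell by 1.24 (adjusted p 3.8e-04), and SMAD9, named after its value was seen, rose by 0.996 (adjusted p 0.0155). The change of SMAD9 in SCR cells was close to this, at 0.984 (adjusted p 0.0543). SMAD9 was low, with a mean of 0.773 CPM in siB DMSO and 2.41 in siB AAI, and reached the filter mostly through siB AAI.

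Among the activin, BMP and nodal ligands and antagonists, 1 of 11 tested rose and 1 fell with AAI in SCR cells, BMP8A (2.19, adjusted p 5.1e-04, named after its value was seen) and GDF11 (-1.68, adjusted p 0.0100). In siB cells 5 of 15 rose and 3 fell. BMP8A rose by 2.64 (adjusted p 1.4e-04), GDF11 fell by 1.28 (adjusted p 1.2e-04) and BMP4 fell by 0.98 (adjusted p 0.00164). GDF15, named after its value was seen, also fell, by 0.96 (adjusted p 0.00417), and changed by 0.75 in SCR cells (adjusted p 0.365). The other 4 that rose, named after their values were seen, were the antagonists LEFTY1 (1.74), LEFTY2 (3.32) and CHRD (2.43) and the ligand NODAL (1.68), all with a mean level under 5 CPM. BMP8A and these 4 passed the filter in siB cells only through siB AAI. Their highest siB DMSO levels were 0.812 (BMP8A), 0.342 (LEFTY1), 0.0451 (LEFTY2), 0.598 (CHRD) and 0.171 CPM (NODAL). The filter thus favored their rise, that of BMP8A in SCR cells, and the higher values of LEFTY1, LEFTY2 and CHRD given next. The knockdown under AAI raised 3 of 15, LEFTY2 (2.69, adjusted p 5.8e-04), CHRD (1.82, adjusted p 0.00339) and LEFTY1 (1.70, adjusted p 0.0121), and lowered BMP2 (-0.82, adjusted p 0.0370). LEFTY2 (2.76, adjusted p 0.00428) and CHRD (1.74, adjusted p 0.0496) were also the 2 of 15 that passed for the interaction. In DMSO 0 of the 10 tested passed between siB and SCR cells, and 0 in each of the other pathway lists.

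Of the SMAD partners and regulators, 0 of 19 passed with AAI in SCR cells. In siB cells 4 rose and 4 fell, with the deubiquitinase USP15 at 0.96 (adjusted p 6.8e-04) and the SMAD corepressor TGIF1 at -1.02 (adjusted p 1.6e-04). Of 28 genes tested among those known to respond to TGF-β, 1 rose and 2 fell in SCR cells. ID2, an inhibitor of basic helix-loop-helix factors, rose by 1.79 (adjusted p 0.0222), whereas TPM1, a tropomyosin, fell by 1.21 (adjusted p 0.0168) and LOXL2, which cross-links collagen, fell by 1.15 (adjusted p 0.0369). In siB cells 6 of 28 rose and 11 fell. Those that rose included the cytokine IL11 (1.78, adjusted p 0.00161), the transcription factor SNAI1 (1.56, adjusted p 1.4e-04), TAGLN of the actin cytoskeleton (1.23, adjusted p 0.00207) and the cell cycle inhibitor CDKN2B (1.04, adjusted p 0.00813). Those that fell included BHLHE40, a transcription factor (-2.15, adjusted p 3.8e-05), CYR61, a matricellular protein (-1.55, adjusted p 1.5e-05), and COL1A1, a chain of type I collagen (-1.37, adjusted p 0.00408). Under AAI, 2 of 28 were lower in siB than in SCR cells, CYR61 (-1.13, adjusted p 0.00938) and, named after its value was seen, ID3 (-1.10, adjusted p 0.0108).

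The median change with AAI in SCR cells was -0.36 for latency and activation, -0.13 for the other receptors, 0.33 for the other SMADs, 0.04 for the activin, BMP and nodal list, 0.02 for SMAD partners and -0.33 for the responsive genes, beside 0.18 for all genes. In siB cells the medians were -0.37, -0.21, -0.16, 0.09, -0.07 and -0.17 in the same order, beside 0.10 for all genes.

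**Figure D4:**
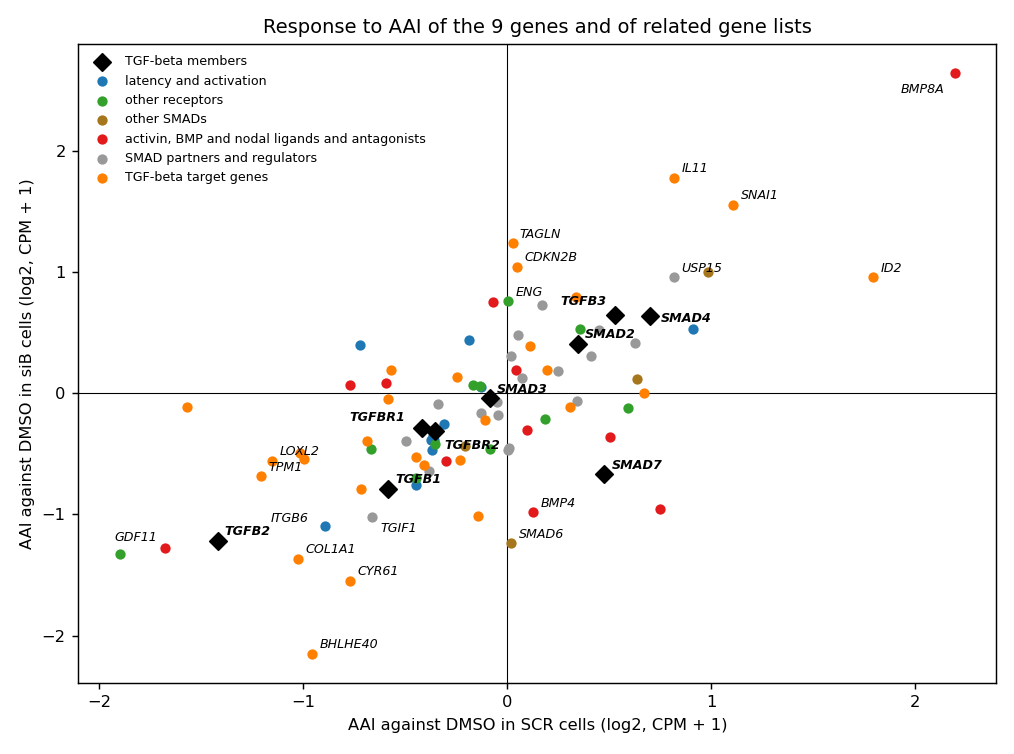
Change with AAI in SCR cells (horizontal axis) and in siB cells (vertical axis), both on the log2 scale of CPM plus 1, for the 9 genes (black diamonds, bold names) and the genes of 6 related lists (colored dots) tested in both. Among the diamonds SMAD7 alone lies in the lower right, at 0.48 and -0.67, and TGFB2 lies farthest to the lower left, at -1.42 and -1.22.

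For the genes that passed in siB cells, the 3 genes nearest in profile were found among 11560 genes with a mean level of at least 5 CPM, as the smallest root mean square difference of centered log2 values over the 12 libraries. Nearest to TGFB1 were YPEL3 (0.126), QPRT (0.133) and MEA1 (0.141), and nearest to TGFB2 were SOGA3 (0.208), CDH6 (0.225) and AMOT (0.264). TGFB3 had RIDA (0.148), BTG3 (0.167) and COX18 (0.190), and TGFBR2 had PFN2 (0.106), CIT (0.106) and KCTD20 (0.108). SMAD2 lay nearest to USP28 (0.0931), FBXL20 (0.103) and NEK4 (0.114), and SMAD4 to IRAK4 (0.0877), NCBP3 (0.1005) and YIPF6 (0.105). SMAD7 lay nearest to MARS2 (0.153), EHD1 (0.184) and CAMKK1 (0.185). The profiles themselves varied by 0.260 (TGFBR2) to 0.902 (TGFB2) on the same measure. None of the 9 genes was among the nearest 3 of another.

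The 9 genes differ in size, by which the study classed genes. By GENCODE release 44 on hg38, the span of TGFB3 was 24.9 kb, of SMAD7 31.1 kb, of TGFBR1 50.2 kb, of TGFB1 52.3 kb, of SMAD4 56.5 kb, of TGFBR2 87.5 kb, of TGFB2 99.3 kb, of SMAD2 122 kb and of SMAD3 131 kb. The annotation places TGFB1 at chr19:41301587-41353922 (minus strand), TGFB2 at chr1:218345336-218444619 (plus strand) and TGFB3 at chr14:75958097-75983011 (minus strand). The receptors lie at chr9:99104038-99154192 (plus strand) for TGFBR1 and chr3:30606601-30694142 (plus strand) for TGFBR2. Of the SMADs, SMAD2 lies at chr18:47808957-47931146 (minus strand), SMAD3 lies at chr15:67063763-67195173 (plus strand), SMAD4 lies at chr18:51028528-51085045 (plus strand) and SMAD7 lies at chr18:48919853-48950965 (minus strand). By whole-gene span the shortest, TGFB3, rose with AAI in siB cells, and the second shortest, SMAD7, fell. By span of the main transcript TGFB1 was shorter than TGFB3 (23.6 and 23.9 kb), and TGFB1 fell with AAI in siB cells. The longest, SMAD3, had a change of -0.04 there, and SMAD2 rose. With 9 genes no relation to length was tested.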

How the data were processed

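Messenger RNA was purified on poly-T beads from 12 samples of HK-2 cells and sequenced. The authors' methods state alignment of paired-end reads to hg38 and gene counting on the UCSC annotation of that build; the aligner and the use of strand are not given in the sources used here. The authors deposited log10 values, log10(CPM + 1). Their back-transformed sums and steps gave CPM and whole reads (100% of values whole within 0.05 of a read in every library), with no further scaling. Groups and replicate numbers came from sample titles, because the treatment field read DMSO for every sample. A value of 0 reads allows up to 3 reads, 0.0701 CPM in the deepest and 0.189 CPM in the shallowest library, for counting error only.

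Pairs of groups were fitted with limma 3.58.1 in R 4.3.3 (lmFit, eBayes with trend) on log2(CPM + 1), which understates changes of low genes, over genes that reached a CPM of 1 in 3 or more libraries. Every adjusted p is limma's, with Benjamini-Hochberg correction over all genes tested. A gene passed at an adjusted p under 0.05, and the stricter limit added a 2-fold change. The interaction was fitted over all 4 groups. SE are limma's moderated ones. The fits were also run on simulated data with the same spread setting for every gene and no outlying library. Those runs do not gauge the fits at the spread seen in SCR DMSO. Because the deposited values were on a log scale, no count model was the main test.

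The 9 genes and the 12 gene lists were chosen with earlier results of these data known. Besides the 9 genes, the rule named up to 8 list genes each way per comparison, by size of change among those past 0.05 with a mean CPM of at least 5, and the 3 nearest genes of each gene that passed. Each fit was repeated with 0.1 as pseudocount, without the filter, with a filter at a mean CPM of 5, under median-ratio size factors, on CPM without the transcript AC010970.2, over all 4 groups, with the replicate number as a block, by voom in limma on the recovered reads, without the trend, and without each library in turn over the same tested genes. The names of 28 genes had turned into dates; these were tested but not named. The level of 1 leukocyte marker is not reported here.

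Pairing of replicate numbers was checked by correlating, across genes, how same-numbered libraries deviated from the mean of their group. No correlation was computed between differently numbered libraries, so there is no baseline for these values. The labels state no pairing, so the blocked values rest on an assumed pairing. Correlations were 0.35 to 0.49 for SCR DMSO with SCR AAI and 0.30 to 0.64 for SCR AAI with siB AAI, where every pair exceeded 0.1 and blocked values are given; they were 0.03 to 0.22 for siB DMSO with siB AAI and -0.20 to 0.74 for SCR DMSO with siB DMSO. Gene spans, exons and transcript lengths came from GENCODE release 44 on hg38, and promoter windows and starts from RefSeq, in which all 9 genes matched.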

Additional observations from a re-analysis of the deposited data

How the results depend on the processing

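The count of genes past an adjusted p of 0.05 depended on the fit. With AAI in SCR cells it was 0, and 1 under median-ratio size factors, 2 with the replicate block and 1 without SCR DMSO replicate 2; at 2-fold it was 0, and 1 in each of these 3 fits. In siB cells it was 7, and 2 in the fit over all 4 groups. At 2-fold it was 1 there, and 0 in the fit over all 4 groups and without siB DMSO replicate 1. At 0.05 the count in siB cells was under 7 whenever 1 siB library was left out. TGFBR2 was lost in each of these fits, and SMAD2 in all of them but the fit without siB DMSO replicate 1. The other genes of the 7 kept their call in these fits. TGFBR2 was also lost without the trend, and SMAD2 in further fits that kept every library. Leaving out a library left 0 to 1 genes in SCR cells, at either limit, and 0 to 1 at 2-fold with AAI after knockdown. For the knockdown under AAI it was 0, 1 with the replicate block and 1 without SCR AAI replicate 1, and for the interaction 0, and 1 without SCR DMSO replicate 2 or SCR AAI replicate 1. Same-numbered libraries of siB DMSO with siB AAI, and of SCR DMSO with siB DMSO, did not all correlate above 0.1, so blocked values are not singled out for them. Whether any of the numbers pair is not known from the labels. In all other fits the block changed no count by over 1.5 times. The cause of these changes was not tested.

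Some changes turned direction, none of which had passed the threshold as reported. For the knockdown they became -0.021 (TGFB1) and -0.015 (TGFB3) with DMSO under median-ratio size factors, 0.023 for TGFBR1 with DMSO under voom and -0.010 for SMAD2 with AAI without AC010970.2, and the interaction of SMAD4 became 0.022 under median-ratio size factors. Leaving out a library gave, with AAI in SCR cells, -0.20 to 0.0073 for SMAD3. Changes there that kept their direction ran from 0.15 (without SCR AAI replicate 1) to 0.82 (without SCR DMSO replicate 1) for TGFB3, from -0.56 (without SCR DMSO replicate 2) to -0.24 (without SCR DMSO replicate 3) for TGFBR2, and from 0.33 (without SCR AAI replicate 3) to 0.73 (without SCR AAI replicate 1) for SMAD7. Without SCR DMSO replicate 2 and without SCR DMSO replicate 1 they were -0.73 and -0.11 for TGFBR1, 0.065 and 0.59 for SMAD2 and 0.33 and 1.05 for SMAD4, the ends of their ranges. For the knockdown under AAI it gave -0.33 to 0.022 for TGFB1, -0.56 to 0.068 for TGFB2, -0.12 to 0.54 for TGFB3, -0.11 to 0.27 for TGFBR1, -0.21 to 0.0043 for TGFBR2, -0.10 to 0.063 for SMAD2 and -0.37 to 0.011 for SMAD4. With DMSO it gave -0.14 to 0.36 for TGFB1, -0.96 to 0.15 for TGFB2, -0.17 to 0.34 for TGFB3, -0.36 to 0.26 for TGFBR1, -0.34 to 0.18 for SMAD2 and -0.44 to 0.28 for SMAD4. For the interaction it gave -0.39 to 0.71 for TGFB2, -0.18 to 0.50 for TGFB3, -0.18 to 0.44 for TGFBR1, -0.076 to 0.25 for TGFBR2, -0.18 to 0.34 for SMAD2, -0.049 to 0.15 for SMAD3 and -0.42 to 0.30 for SMAD4. TGFB3 had no value between siB and SCR cells with DMSO under the filter at a mean CPM of 5.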
